A study of Mus musculus with 122 samples.

Results

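Pvalb, Tmem132e, Ror1, Gabra5, Vipr1 and Cox6a2 are 6 of the 52459 genes listed in the RNA-seq table of a mouse embryonic stem (ES) cell system for CTCF and CTCFL, and all 6 have a value in each of its 38 libraries. They were chosen by their RNA levels. Pvalb, Tmem132e, Ror1 and Gabra5 had the strongest rises on induction of CTCFL (CTCFL D over U) among genes that were low in untreated cells. Cox6a2 and Vipr1 came at places 2 and 3 among the rises on induction of the chimera LCL among genes low in untreated cells of that line. The rises that chose the genes are therefore given as a description, without a test, and the tests concern other comparisons. The members were proposed as silent neural genes, and the data bear this out in part only. Vipr1 and Cox6a2 were not silent in untreated cells of the CTCFL line, at 81.9 ± 3.30 and 53.7 ± 10.6 normalized counts (SD, n = 3), and Cox6a2 is known as a heart and skeletal muscle gene, so the genes are referred to by name.

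The cells were E14Tg2a, an ES cell line of 129/Ola background, grown without feeders with LIF and inhibitors of GSK3 and MEK. All groups, the untreated ones included, carried an auxin-inducible degron and eGFP on both alleles of Ctcf, the auxin receptor Tir1 at Rosa26, and a doxycycline-inducible transgene at the Tigre locus with a FLAG tag at its N terminus and mRuby2 at its C terminus. The transgene encoded CTCF, CTCFL, CLC (N and C termini of CTCF around the zinc fingers of CTCFL) or LCL (the converse), and CLL and LLC, built in the same manner, enter here through their FLAG ChIP-seq alone. Cells were untreated (U), given 500 µM IAA, an auxin that triggers degradation of the tagged CTCF (I), 1 µg/ml doxycycline (D), or both (ID). RNA was measured in 3 libraries of CTCFL U, I and D and 2 of CTCFL ID, in 2 of CTCF U and 3 each of CTCF I, D and ID, and in 2 per group of LCL and CLC. The sample labels give 24 h of treatment for these groups and 48 h for CLL, LLC and the RNase and mock groups, whereas the protocol gives 2 days for RNA and ChIP. For the treated Hi-C groups used here the labels give 24 h and the protocol 4 days. The lines were grown from picked single colonies, the number of clones behind each is not given in the sources used here, and effects of clone and transgene cannot be told apart.

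CTCF binds DNA through its zinc fingers in nearly all cells and holds cohesin at the borders of chromatin loops. CTCFL (BORIS) is its paralog, shares similar zinc fingers but not the flanking regions, and is normally restricted to male germ cells. The 6 genes are active elsewhere. Pvalb encodes parvalbumin, a calcium buffer of fast-spiking GABAergic interneurons and fast muscle. Tmem132e encodes a single-pass membrane protein of brain and inner ear. Ror1 encodes a receptor tyrosine kinase-like receptor for Wnt5a in the embryo. Gabra5 encodes the alpha5 subunit of the GABA-A receptor, abundant in hippocampus. Vipr1 encodes VPAC1, a receptor for the neuropeptides VIP and PACAP, and Cox6a2 encodes the muscle isoform of subunit 6A of cytochrome c oxidase.

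The genes lie on 5 chromosomes of GRCm38. Pvalb spans chr15:78191114-78206400 on the minus strand, Tmem132e chr11:82388900-82446332 on the plus strand and Ror1 chr4:100095791-100444765 on the plus strand. Gabra5 spans chr7:57407672-57510059 on the minus strand, Vipr1 chr9:121642716-121672954 on the plus strand and Cox6a2 chr7:128205435-128206387 on the minus strand. Gabra5 and Cox6a2 share chromosome 7 but lie at distant positions.

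FLAG ChIP-seq recovered the transgenic protein, and the windows under the summits of the sites at these genes are printed because they hold the DNA that the results turn on. Each window is GRCm38 sequence from the RefSeq genome, on the strand of the gene, reaching 75 bases to either side of the summit, and a site is a region with a peak in both replicates. Capitals mark the longer of 2 motifs found on either strand, a long core of the CTCF consensus, which is CC, any 3 bases and then AGNNGGC, or, where it is missing, the short core AGNNGGC alone, which lies inside the long one. Windows without capitals hold neither. The Pvalb window of CTCFL D (chr15:78204225-78204375) lies 2100 bp inside the annotated gene and overlaps the promoter of a second RefSeq start of Pvalb, and holds 4 short cores. The Tmem132e window (chr11:82388710-82388860) is centred 115 bp before the start of the gene and holds a long core 14 bp from the summit. Of the Ror1 windows of CTCFL D, the one at the start (chr4:100095690-100095840) holds a short core and the one 975 bp downstream (chr4:100096691-100096841) a long core on the opposite strand. The Gabra5 window (chr7:57510052-57510202) is centred 68 bp before the start and holds a short core 2 bp from its summit. The Vipr1 window (chr9:121641901-121642051) is centred 740 bp before the start and holds neither motif. The last 2 windows are from CTCF ID and stand for sites where transgenic CTCF had higher −log10 q values than CTCFL, at the 3′ end of Vipr1 (chr9:121671482-121671632, 2 long cores) and about 2 kb before Cox6a2 (chr7:128208300-128208450, 1 short core).
Pvalb, CTCFL D: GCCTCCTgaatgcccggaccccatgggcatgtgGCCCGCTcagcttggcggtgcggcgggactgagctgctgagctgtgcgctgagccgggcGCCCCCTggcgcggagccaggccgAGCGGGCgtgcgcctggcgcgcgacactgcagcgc
Tmem132e, CTCFL D: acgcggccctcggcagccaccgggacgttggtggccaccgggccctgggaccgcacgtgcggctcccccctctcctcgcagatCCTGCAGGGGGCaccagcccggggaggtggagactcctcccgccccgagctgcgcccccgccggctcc
Ror1 start, CTCFL D: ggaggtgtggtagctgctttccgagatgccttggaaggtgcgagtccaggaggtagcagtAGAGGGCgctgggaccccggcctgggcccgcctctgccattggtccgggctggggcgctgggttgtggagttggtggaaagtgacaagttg
Ror1 downstream, CTCFL D: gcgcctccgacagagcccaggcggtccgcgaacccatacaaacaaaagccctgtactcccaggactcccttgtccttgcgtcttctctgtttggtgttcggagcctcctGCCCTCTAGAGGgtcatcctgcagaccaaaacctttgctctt
Gabra5, CTCFL D: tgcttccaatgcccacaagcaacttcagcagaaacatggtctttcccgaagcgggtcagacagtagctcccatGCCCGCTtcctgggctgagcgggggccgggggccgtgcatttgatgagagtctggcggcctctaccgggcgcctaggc
Vipr1 upstream, CTCFL D: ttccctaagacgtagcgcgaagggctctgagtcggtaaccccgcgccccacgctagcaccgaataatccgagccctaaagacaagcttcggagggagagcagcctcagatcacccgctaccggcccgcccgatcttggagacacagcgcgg
Vipr1 3′ end, CTCF ID: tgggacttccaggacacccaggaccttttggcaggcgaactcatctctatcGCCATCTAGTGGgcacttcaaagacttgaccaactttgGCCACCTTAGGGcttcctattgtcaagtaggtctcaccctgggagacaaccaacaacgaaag
Cox6a2 upstream, CTCF ID: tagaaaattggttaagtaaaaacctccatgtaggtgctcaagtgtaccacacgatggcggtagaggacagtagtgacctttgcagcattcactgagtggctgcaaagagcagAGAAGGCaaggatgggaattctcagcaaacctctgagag

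GC content differed among the windows bound by CTCFL. It was 76.2% in the Pvalb window, 78.1% in that of Tmem132e, 64.2% and 57.6% in those of Ror1, and 62.9% in both the Gabra5 and the upstream Vipr1 window, against a median of 52.3% over the windows of all 22294 CTCFL D sites. Some other windows of CTCFL at these genes were below the medians. These held 50.3% at the 3′ end of Vipr1 in D, and 46.4% downstream of the Ror1 start and 43.7% at Cox6a2 in ID, where the median over all sites was 51%. The rest lay at or above the medians, from 51% at the 3′ end of Vipr1 to 78.1% at Tmem132e, both in ID. The Cox6a2 window of CTCF ID had 47.0% GC. CpG dinucleotides reached 0.83 of the number expected from base composition in the Pvalb window and 1.09 in the upstream Vipr1 window, with a median of 0.29 over all CTCFL D windows. The long core was found in 30.1% and the short core in 56.9% of all CTCFL D windows, in 48.2% and 70.4% of CTCF ID windows, and in 8.67% and 59.7% of the 32619 RefSeq promoters of 300 bases. RefSeq promoters of 5 of the 6 genes were matched, with none listed for Cox6a2, and their GC content ran from 56.7% to 73.7%, with a median of 53% over all promoters. A match describes the letters only.

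Binding was scored at promoters, as a site whose middle lay within 3 kb of an annotated start of the gene. CTCFL had a site at the promoters of 5 of the 6 genes in D and of all 6 in ID, Cox6a2 being the gene without one in D. Such a site was present at 34.4% and 32.4% of 21755 protein-coding genes, and at 12% in both conditions of the 7310 genes with a mean under 10 in CTCFL U. Transgenic CTCF had sites at 4 genes in D (Cox6a2, Gabra5, Ror1 and Vipr1, 31.9% of genes) and at 3 in ID (Cox6a2, Ror1 and Vipr1, 25.2%). LCL had sites at 3 genes in D (Cox6a2, Ror1 and Vipr1, 32.3%) and at all 6 in ID (41.4%). CLC had none in D (7.92%) and sites at 5 in ID, all but Gabra5 (21.6%). CLL had sites at Pvalb, Tmem132e and Vipr1 in ID (15.6%), none in D, and LLC had none in either condition. When both peaks had to overlap by 50%, the number fell to 3 for CTCFL D, 1 for CTCF D and 3 for CLC ID, and a limit of 1 kb left 1 for CTCF ID. The number of sites per group ranged from 7599 in CLC D to 37154 in CTCF D among the 4 proteins with RNA data, and no file gives the read depth behind the peaks.

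The height of the sites followed a different order at each gene. A −log10 q also depends on the depth of a library, so heights of different groups are set side by side without a test. At Pvalb, the CTCFL site had a −log10 q of 37.5 and 32.5 in the replicates of D and of 37.0 and 20.7 in ID, against 7.06 and 10.7 in LCL ID and 9.99 and 8.52 in CLC ID. At Tmem132e, CTCFL reached 34.3 and 23.9 in D and 19.8 and 27.8 in ID, LCL 11.4 and 7.6 in ID, and CLC 12.7 and 17.6 in ID. Transgenic CTCF had no site at either promoter in D or ID, and a peak in 1 replicate alone overlapped both in D. At Gabra5, CTCFL reached 34.4 and 22.6 in D and 18.4 and 20.4 in ID, while CTCF D had 5.45 and 18.6 and LCL ID 8.01 and 12. These 3 CTCFL D sites stood in the upper 8.78%, 16.6% and 18.2% of all CTCFL D sites by the lower of the 2 values.

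Ror1 and Cox6a2 showed the opposite order. At the Ror1 start, the values were 45.1 and 49.8 for CTCF ID, 33 and 42.8 for CTCF D, and 62.1 and 64.8 for LCL ID. CTCFL reached only 7.10 and 3.26 there in D, and 11.4 and 15.0 in ID. The second Ror1 site, 975 bp downstream, reached 24.5 and 7.27 for CTCFL with doxycycline and 10.7 and 17.3 with both agents. CTCF had no site there, but a peak in 1 replicate alone of CTCF D overlapped it. At Cox6a2, the site about 2 kb upstream had 103 and 83.0 in CTCF ID, 35.7 and 51.5 in CTCF D, 39.8 and 35.3 in LCL ID and 5.45 and 15.4 in LCL D. CTCFL had 8.68 and 8.99 there in ID and no site in D, and CLC had 4.94 and 4.02 in ID.

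Vipr1 held 3 sites. The upstream one had 33.2 and 19.5 in D of the CTCFL line and 22.7 and 26.7 in ID. This upstream site was also found for LCL in both conditions and for CLC in ID. It was not found for CTCF, but a peak in 1 replicate alone of CTCF D overlapped it. A site 26.9 kb into the gene, at an internal annotated start, had 29.2 and 30.1 in D of the same line and 38.6 and 32.1 in ID. Another site near 28.8 kb, the one with 2 long cores, had 49.4 and 38.8 in CTCF ID and 6.99 and 5.85 in CTCFL D. The internal sites count as promoter sites of Vipr1 through an internal start, and with the first start of each gene alone, a setting chosen after seeing the data, the number of genes with a CTCF site was 3 in D and 2 in ID.

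The cohesin subunit RAD21 had a site in both replicates at 1 of the 6 genes. At Cox6a2 it was found about 2 kb upstream in CTCF D, with a −log10 q of 5.79 and 2.04, and in LCL D, with 2.36 and 2.27, where 2.51% and 1.31% of genes had a RAD21 promoter site. No site of RAD21 was found at the promoters of the other 5 genes in any of 8 groups. RAD21 replicates were uneven, with 20467 and 238 peaks when CTCFL was induced alone and 5821 and 181 when IAA was added. Only 0.161% and 0.101% of genes had a RAD21 promoter site in these groups, so an absent site says little. After RNase, CTCFL ID had no site at the promoters of the 6 genes, with 2319 sites in all. The mock control held 7127 sites in all but none near a start of Pvalb, Tmem132e, Ror1, Gabra5 or Vipr1, so the effect of RNase at those genes was not detectable. At Cox6a2 the mock control had a site, where 6.49% of genes had one with mock and 5.15% with RNase. CTCF ID had sites at Cox6a2, Ror1 and Vipr1 with mock (18.4% of genes) and at Ror1 alone with RNase (9.25%). These differences were not tested.

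**Figure D1:**
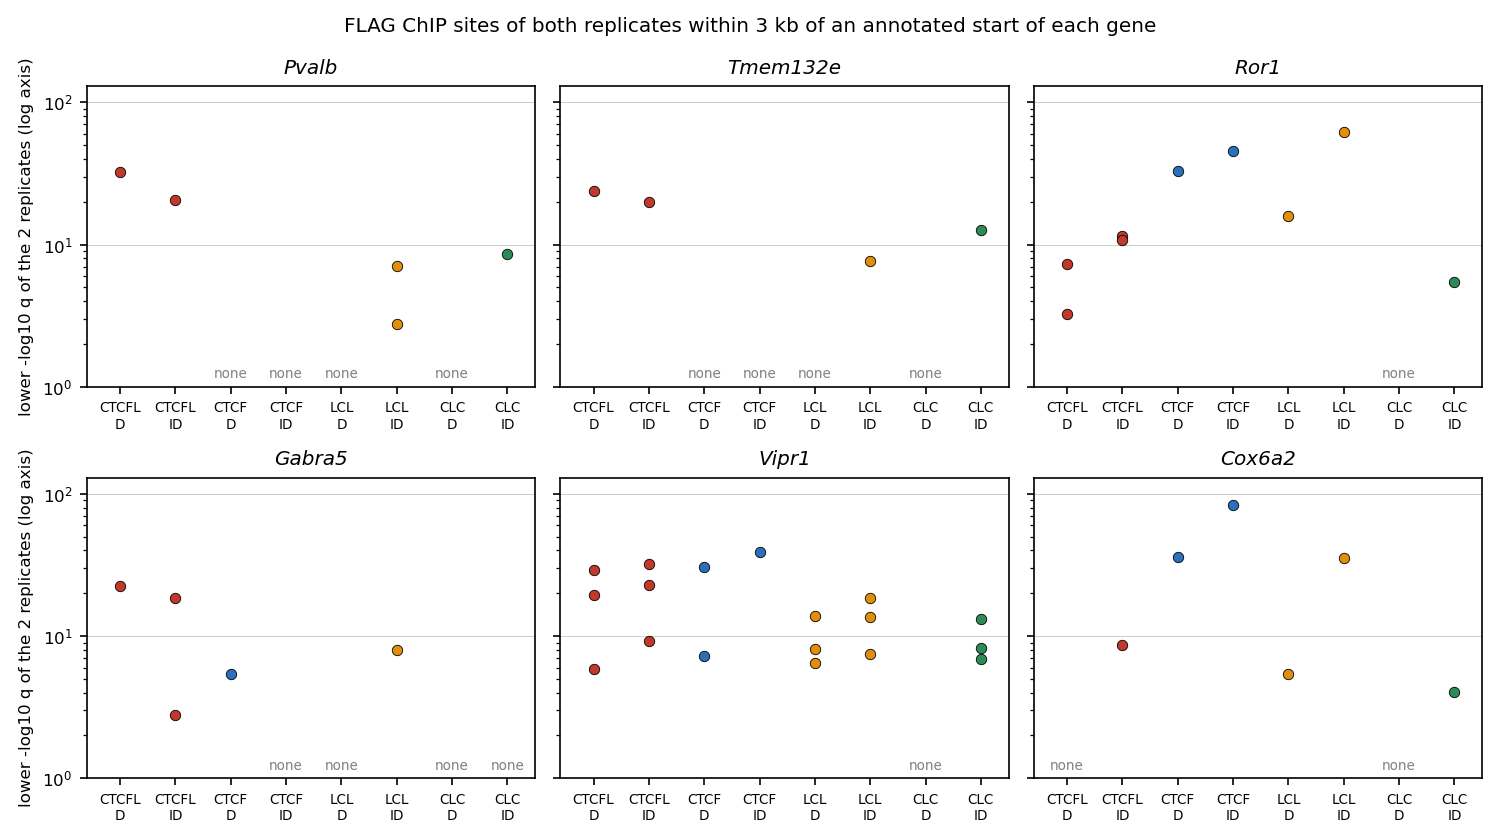
FLAG ChIP-seq sites within 3 kb of an annotated start of each gene, by line and condition. Each point is 1 site found in both replicates and the y axis, a log axis, gives the lower −log10 q of the replicates; "none" marks a group without a site. CTCFL points are the highest at Pvalb, Tmem132e and Gabra5, and CTCF or LCL points at Ror1 and Cox6a2.

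**Figure D2:**
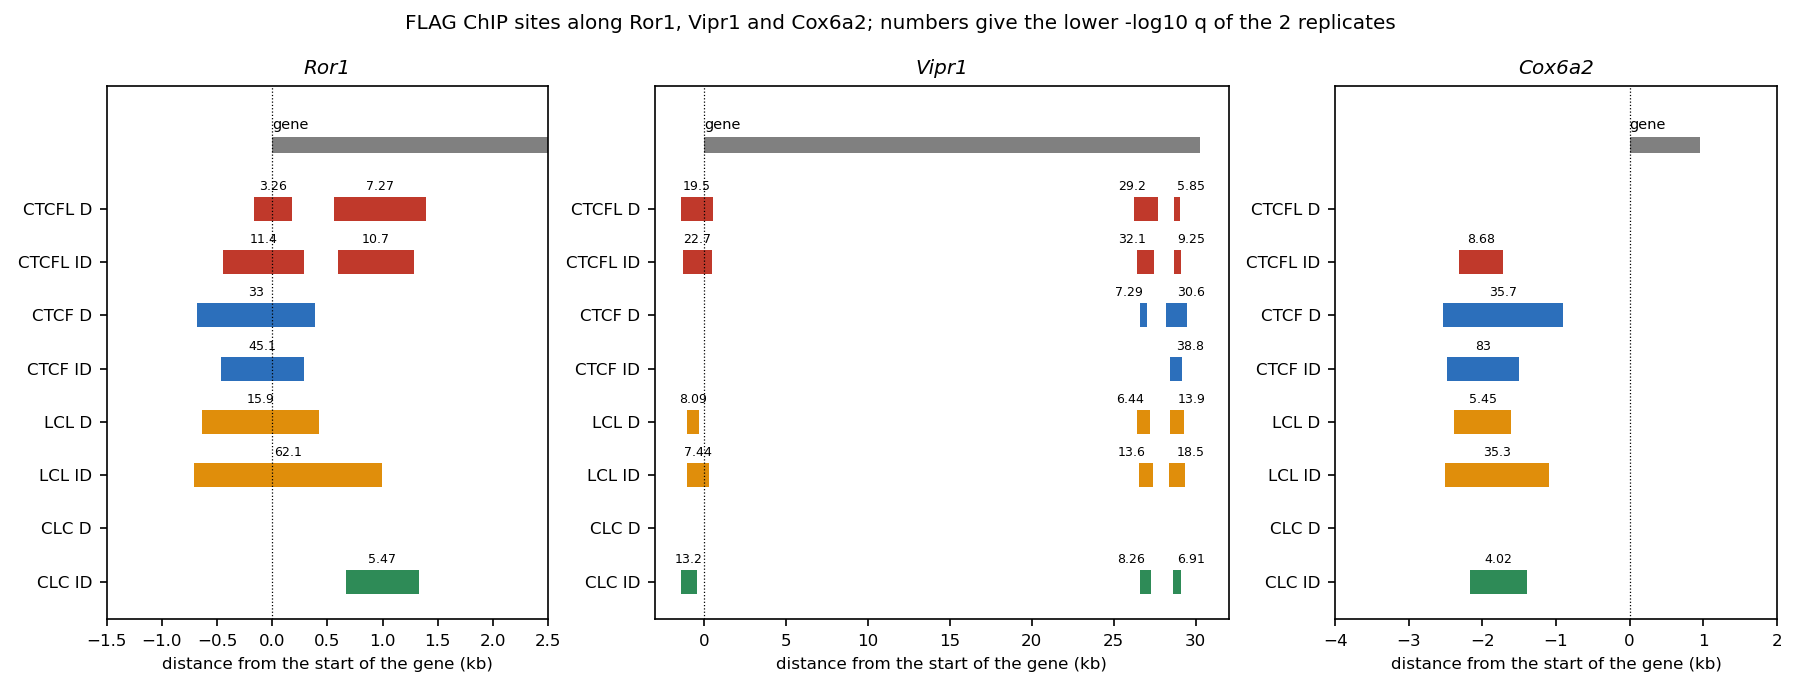
Positions of FLAG sites along Ror1, Vipr1 and Cox6a2, in kb from the start of the gene, with 1 row per line and condition. Bars span the merged peaks of the replicates and numbers give the lower −log10 q, so that the separate CTCFL site of Ror1 about 1 kb downstream, the 3 sites of Vipr1 and the upstream site of Cox6a2 can be compared between proteins.

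RNA levels are given as normalized counts, which are reads per gene divided by 1 size factor per library. Levels of different genes were compared per kb of exon only. The transgenes themselves set a limit on comparing lines. Ctcfl, which also counts transgenic reads, lay between 193 and 225 in CTCFL U, 177 and 221 in I, 7570 and 9398 in D, and 5455 and 5572 in ID, between 27.2 and 36.5 in LCL U, 384 and 416 in LCL D and 1120 and 1225 in LCL ID, and between 1791 and 1829 in CLC D and 2544 and 3441 in CLC ID. It rose in ID over I by a log2 difference of 4.78 in CTCFL (limma, adjusted p = 1.94e-17), 5.33 in LCL (1.73e-12) and 5.16 in CLC (2.79e-06). Ctcf did not rise in the CTCF line, where D differed from U by −0.33 (adjusted p = 0.00872) and ID from I by −0.12 (0.15), so its groups are named as the libraries labelled D and ID. FLAG ChIP-seq of that line, from other samples, held 37154 sites in D and 30317 in ID. The authors reported transgenic CTCF protein in both conditions by western blot. Total reads per library ranged from 6847072 in 1 CTCFL D library, in which 1 read is worth 3.75 normalized counts, to 49716771. The median was 26013021 over the 36 libraries in which whole reads were recovered. A count of 0 allows up to 3 reads, which is 1.75 to 11.2 normalized counts depending on the library, and such limits cover counting error only. In bulk RNA, fewer cells with a transcript and less transcript per cell cannot be told apart.

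Pvalb, the calcium buffer, was at or near 0 without doxycycline in the CTCFL and CTCF lines and present in the libraries labelled with it. In the CTCFL line the libraries held 1.35, 0 and 3.48 normalized counts in U, 6.53, 2.00 and 3.62 in I, 124, 120 and 131 in D, and 120 and 119 in ID. The D and ID libraries overlapped each other and stood far above all U and I libraries. In the CTCF line the libraries held 0 and 0 in U, 0, 0 and 0.84 in I, 26.3, 24.4 and 18.5 in those labelled D, and 22.9, 22.3 and 12.1 in those labelled ID. These too separated fully from U and I, at a level below that of the CTCFL line. LCL held 6.71 and 1.39 in D and 3.53 and 5.65 in ID, with 0 in its U and I libraries, and CLC ranged from 0 to 5.54 over its 8 libraries. Per kb of exon, the untreated CTCFL line had a mean of 1.55.

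Tmem132e was high with doxycycline in the CTCFL line. It held 2.69, 0.99 and 4.64 in U, 4.66, 17.0 and 5.43 in I, 225, 191 and 131 in D and 226 and 213 in ID. The lowest of the 131 to 226 with doxycycline exceeded the highest without it, 17.0. In the other lines all libraries stood at or below 16.9, the highest being 1 CTCF library labelled ID beside others of that group at 3.52 and 1.51.

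Gabra5, the GABA-A receptor subunit, followed the same order in the CTCFL line at a lower level in ID. Libraries held 1.35, 1.98 and 2.32 in U, 12.1, 0 and 3.62 in I, 118, 145 and 89.9 in D, and 80.8 and 48.2 in ID. The ID libraries lay below all D libraries and above all U and I libraries. In the other lines no library exceeded 10.5, and 3 of 4 LCL and CLC groups without doxycycline were at 0 in both libraries.

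Ror1, the Wnt5a receptor, was the exception among the first 4 genes, since its rise in D was not seen in ID. The CTCFL libraries held 1.35, 0 and 4.64 in U, 1.86, 2.99 and 0 in I, 106, 145 and 105 in D, and 10.9 and 1.01 in ID. The ID libraries overlapped those of U and I, and the log2 difference of ID from D was −4.59, a description in which the D libraries are those of the rule. The other lines showed low levels that were lower still with IAA. Ror1 held 8.51 and 3.31 in CTCF U and 12.6, 10.6 and 10.9 in CTCF D, against 0 to 1.21 over the 6 CTCF libraries with IAA, and 8.44 and 11.9 in CLC U against 0 in all 4 CLC libraries with IAA. LCL held 11.4 and 8.64 in U, 0 and 4.85 in I, 9.69 and 4.85 in D, and 7.65 and 11.3 in ID, so that its ID libraries were not below those of D.

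Vipr1, the VIP receptor, was expressed in the untreated CTCFL line and stood higher with doxycycline. Its libraries held 78.1, 84.0 and 83.6 in U, 117, 101 and 130 in I, 666, 641 and 633 in D, and 830 and 909 in ID. No neighbouring pair of these 4 groups overlapped. In the CTCF line it stayed between 29.8 and 69.9 over all libraries. In LCL it held 3.42 and 0.62 in U, 21.0 and 17.0 in I, 37.3 and 31.2 in D, and 15.3 and 33.9 in ID, and in CLC 12.7 and 11.9 in U, 38.5 and 38.1 in I, 31 and 35.6 in D, and 10.5 and 12.8 in ID. The untreated libraries of LCL were the lowest of all 16 groups, and both I and D stood above U in either chimera.

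Cox6a2, the muscle oxidase subunit, was highest in the CTCF line, at 160 and 95 in U, 52.3, 75 and 104 in I, 157, 136 and 244 in the libraries labelled D, and 262, 311 and 281 in those labelled ID. In the CTCFL line it held 53.9, 64.2 and 43 in U, 52.2, 99.8 and 101 in I, 22.7, 31.9 and 41.2 in D, and 87.4 and 75.4 in ID, so that D lay below U. In LCL it held 0 and 1.85 in U, 28.5 and 22.6 in I, 26.1 and 20.8 in D, and 3.53 and 2.82 in ID. The LCL groups with 1 agent stood about equal and far above those with none or both. CLC held 8.44 and 11.9 in U, 33.1 and 50.5 in I, 38.8 and 21.4 in D, and 25.6 and 10.9 in ID.

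**Figure D3:**
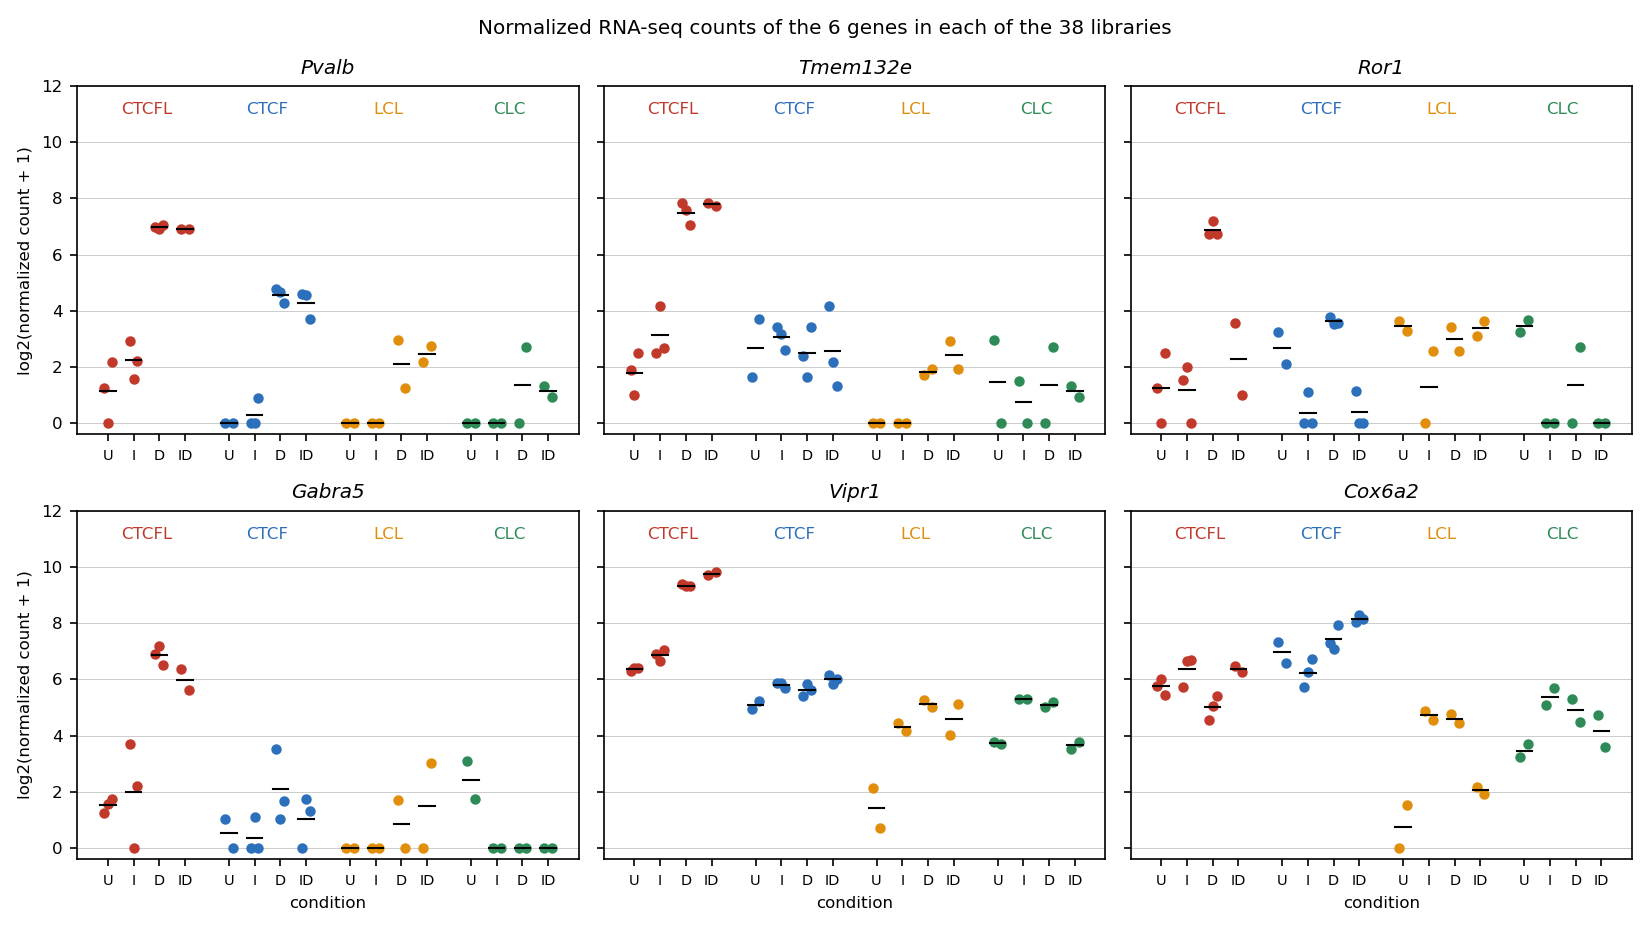
Normalized counts of the 6 genes in all 38 RNA-seq libraries, by line and condition. Each point is 1 library, bars mark group means and the y axis is log2(value + 1); Pvalb, Tmem132e and Gabra5 are high in CTCFL D and ID, Ror1 in CTCFL D alone, Vipr1 in CTCFL D and ID from a higher start, and Cox6a2 is highest in the CTCF line.

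The order of the 16 group means differed among the genes. For Pvalb, the top 4 groups were CTCFL D (125), CTCFL ID (119), CTCF D (23.1) and CTCF ID (19.1), and only the step from CTCFL ID to CTCF D had no overlap among these. For Tmem132e the top 2, CTCFL ID (220) and CTCFL D (182), overlapped, and the next group, CTCFL I, stood at 9.02. For Gabra5 neither CTCFL D (118) and CTCFL ID (64.5) nor CTCFL ID and the next group, CTCFL I (5.25), overlapped. For Ror1, CTCFL D (118) stood apart from CTCF D (11.4), below which most neighbours in the order overlapped. For Cox6a2, CTCF ID (285) stood apart from CTCF D (179), which overlapped CTCF U (127).

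The values that chose the genes were as follows. Among 16840 genes with a mean of at least 10 in the CTCFL line, 7.98% had a log2(value + 1) difference of D over U above 1. Pvalb, Tmem132e, Ror1 and Gabra5 held the first 4 places, with 5.85, 5.69, 5.64 and 5.35, also among the 819 genes with a mean under 10 in U. The next genes in that order, just outside the selection, were Galnt14 (5.29), Rgs6 (5.26), Styk1 (5.19), Abcc9 (5.10) and B3gat2 (5.08). Vipr1 stood at place 81 with 2.97, and Cox6a2 differed by −0.75. In LCL, where 3.83% of 15274 genes exceeded 1 and 511 were low in U, Cox6a2 (3.85) and Vipr1 (3.71) came after Rapgef4 (5.16), and just outside stood Gm45441 (3.31), Eef1a2 (3.31) and Doc2b (3.10).

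Whether the genes also responded to CTCFL when CTCF was degraded was tested in ID against I, libraries that the rule did not use. The U and D libraries of the rule share the fit and its estimate of the spread. All of Pvalb, Tmem132e, Ror1 and Gabra5 reached the minimum mean of 10 in this line through the groups in which they were high. The calls of Pvalb, Tmem132e and Gabra5 in this comparison therefore carry no weight beyond their levels. Of 16840 genes tested, 7.83% were called in either direction and 3.94% higher, where a call needs an adjusted p under 0.01 and a log2 difference above 1. The median difference over all of them was −0.014. Among the 6 genes, 4 were called higher and none lower. Pvalb rose by a log2 difference of 4.68 ± 0.69 (SE, adjusted p = 1.39e-05, limma with Benjamini-Hochberg adjustment, as for all adjusted p below), Tmem132e by 4.67 ± 0.59 (1.63e-06), Gabra5 by 4.01 ± 0.83 (0.00054) and Vipr1 by 2.90 ± 0.17 (3.67e-11). All ID libraries of these 4 genes lay above all I libraries. Without the first CTCFL ID library, Gabra5 had an adjusted p of 0.0194 and was not called.

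Ror1 and Cox6a2 were not called in this comparison. Ror1 differed by 1.12 ± 1.04 (adjusted p = 0.426), with a 95% interval of −1.05 to 3.29 that holds both no change and a rise. The estimate rested on 1 library, since it was −0.16 without the first ID library and 2.40 without the second. Cox6a2 differed by 0.01 ± 0.39 (adjusted p = 0.994, interval −0.81 to 0.82), against a difference of −0.75 in D over U.

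In the CTCF line, the libraries labelled ID were set against I, where 5.06% of 16705 genes were called and 1.76% higher. Pvalb reached the minimum mean in this line only through the libraries labelled D and ID, in which it was high, so that its calls here carry no weight beyond its levels. Of the 3 genes that reached it, Pvalb rose by 3.99 ± 0.53 (adjusted p = 6.6e-05) and Cox6a2 by 1.92 ± 0.27 (9.02e-05), and both were called. From the reads, 46 in ID against 1 in I, the ratio of Pvalb was 61.0 with an exact counting interval of 10.4 to 2460.0. Vipr1 differed by 0.20 ± 0.20 (adjusted p = 0.468, interval −0.24 to 0.63). In the libraries labelled D against U, where 0.455% of genes were called and 0.216% higher, Pvalb was called with a fitted difference of 4.57 ± 0.59 (adjusted p = 0.000949). As both U libraries held no read, its mean was at least 7.10-fold higher than the limit of 3 reads per U library. Without the second CTCF U library its adjusted p was 0.0128. Vipr1 (0.53, adjusted p = 0.115) and Cox6a2 (0.49, 0.263) were not called. With IAA alone, where 10.9% of genes were called, none of the 3 was, with differences of 0.29 for Pvalb, 0.72 for Vipr1 and −0.72 for Cox6a2. These rises were seen in a line in which Ctcf RNA did not rise, and the part of the transgene in them was not tested.

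In LCL, where 8.49% of 15274 genes were called in ID against I, none of the 2 genes tested was. Vipr1 differed by 0.26 ± 0.66 (adjusted p = 0.772) and Cox6a2 by −2.67 ± 0.83 (0.0127). Both Cox6a2 libraries of ID lay below both of I, and the gene was called lower under 5 of the alternative settings, with an adjusted p of 0.00346 with a pseudocount of 5, 0.00884 with the 2 groups alone, 0.00273 by edgeR, 0.00214 by DESeq2 and 2.42e-05 in 1 fit of all lines. Cox6a2 reached the minimum mean in LCL only through I and D, in which it was high, with means of 25.6 and 23.4. The rule used D, and I is the higher side of this test. Its calls in LCL therefore carry no weight beyond its levels. In CLC, 1.95% of 15337 genes were called in ID against I, and Vipr1 (−1.64 ± 0.35, adjusted p = 0.0154) and Cox6a2 (−1.23 ± 0.51, 0.133) were not. In CLC D against U, with 0.6% called, Vipr1 (1.37, 0.0415) and Cox6a2 (1.44, 0.105) were not called either. In CLC I against U, with 12.8% called and 6.7% higher, Vipr1 rose by 1.57 ± 0.35 (adjusted p = 0.00665), a call that was lost without any 1 of the 4 libraries (0.0221 to 0.0514), and Cox6a2 differed by 1.93 (0.0151). The other 4 genes were below the minimum mean in LCL and CLC.

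**Figure D4:**
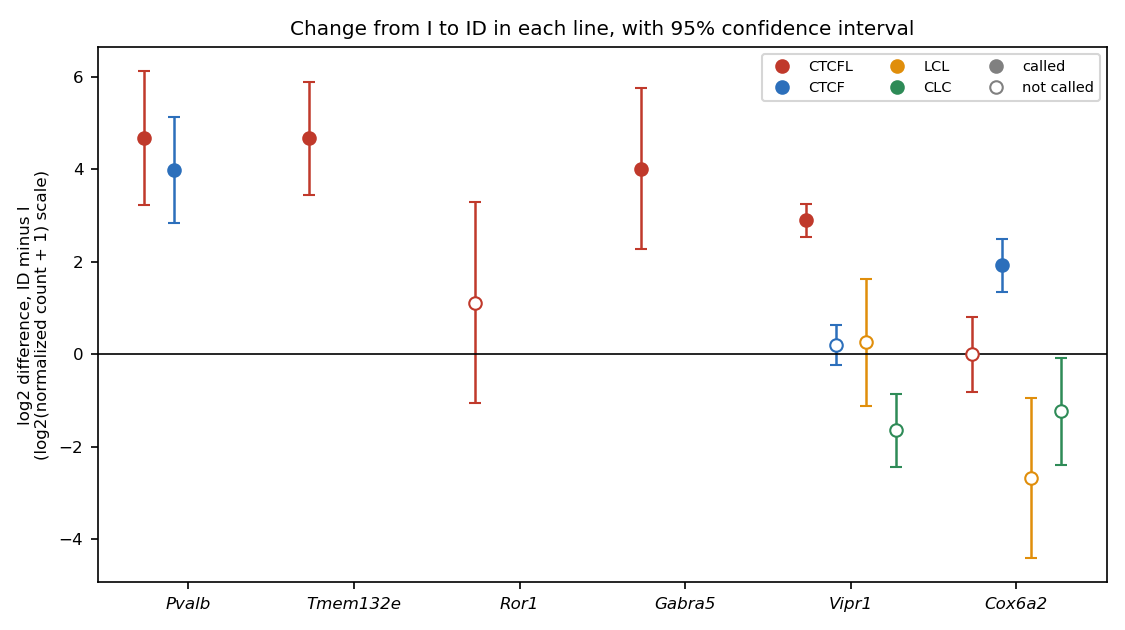
Log2 difference of ID over I for each gene in the 4 lines, on the log2(value + 1) scale. Points are limma estimates and bars their 95% intervals, filled points are called, and genes below the minimum mean of a line have no point there. The CTCFL values of Pvalb, Tmem132e, Gabra5 and Vipr1 lie above 2, and Cox6a2 lies near 0 in CTCFL, above 1 in CTCF and below 0 in LCL and CLC.

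The differences between lines were tested as such, by the difference of the ID over I changes in 1 fit of 17918 genes. Genes entered with a mean of at least 10 in at least 1 line, and the U and D libraries of the rule share the estimate of the spread. Pvalb, Tmem132e, Ror1 and Gabra5 entered only through groups in which they were high, so their calls here carry no weight beyond their levels. The Ctcfl counts given above differ between the lines but cover different shares of the transgenes. The part of transgene level in these differences was not tested. Against the CTCF line, where 2.85% of genes were called and 1.9% higher, the change in the CTCFL line was larger for Tmem132e by 5.17 (adjusted p = 0.00207) and for Vipr1 by 2.70 (2.07e-05). The Tmem132e call was lost without either CTCFL ID library (0.0136 and 0.0112). Pvalb did not differ detectably between these lines (0.69, interval −1.17 to 2.55, adjusted p = 0.702), nor did Gabra5 (3.36, interval 0.89 to 5.82, 0.0621) or Cox6a2 (−1.92, interval −3.07 to −0.77, 0.0194) pass the threshold.

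Against CLC, where 12.8% of genes were called and 5.69% higher, the change was larger in CTCFL for Vipr1 by 4.54 (adjusted p = 2.63e-09), Tmem132e by 4.28 (0.00861) and Pvalb by 3.55 (0.00587). In edgeR on reads, which had 1 CTCFL ID library, the last 2 differences were 4.965 for Tmem132e and 0.92 for Pvalb, and neither call was made. The limma calls of both genes were lost without a filter on low values (adjusted p = 0.0129 for Pvalb and 0.0245 for Tmem132e). They were also lost on leaving out single libraries, in 7 of 9 cases each, with an adjusted p of 0.0119 to 0.0283 for Pvalb (either ID library or the second I library of CTCFL, or any of the 4 of CLC) and 0.0171 to 0.0505 for Tmem132e (either ID library or I replicate 1 or 3 of CTCFL, or the first I or either ID library of CLC). The CLC libraries of both genes were at or near 0. Against LCL, where 11.1% were called and 5.44% higher, Vipr1 was larger in CTCFL by 2.64 (3.11e-05) and Cox6a2 by 2.67 (0.0011), and the others were not called, with Pvalb at 2.22 (interval 0.17 to 4.27), Tmem132e at 2.25 (−0.35 to 4.85) and Gabra5 at 2.51 (−0.22 to 5.24). Between LCL and CTCF, where 9.58% were called and 4.52% lower in LCL, Cox6a2 was lower in LCL by −4.59 (3.55e-07). LCL carries the zinc fingers of CTCF, and both proteins had a FLAG site about 2 kb upstream of the gene in ID.

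The families of the 6 genes were described in CTCFL ID over I, from lists of their other members. For these and for the neighbours and markers below, edgeR and DESeq2 had 1 CTCFL ID library, so their calls have no replicate in that group. Among EF-hand calcium buffers, the family of Pvalb, 12 of 14 were tested and 2 were called higher and none lower. These were Calb2 (calretinin), another marker of interneurons, with 232, 173 and 264 in I and 985 and 852 in ID (2.06, adjusted p = 7.83e-09), and Necab2, with 216, 173 and 159 in I and 660 and 760 in ID (1.96, 1.22e-08). Both genes were already expressed in U, at 373 and 294. The median over the family was 0.04. Of the 4 other TMEM132 genes all were tested and none called by limma, edgeR or DESeq2, 1 having an unadjusted p under 0.05, with Tmem132a at 0.39 (0.00558).

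Of 22 ROR receptors and non-canonical Wnt genes, 21 were tested and none called by limma or edgeR. DESeq2 called 1, Prickle2, named after its value was seen, and 10 had an unadjusted p under 0.05 in limma. Ror2, the closest relative of Ror1, was abundant and changed little with doxycycline, with means of 748, 296, 822 and 327 in U, I, D and ID and a difference of 0.16 (adjusted p = 0.458) in ID over I. Of 18 other GABA-A receptor subunits, 6 were tested and none called by limma, edgeR or DESeq2, 1 having an unadjusted p under 0.05. Gabrg3, the gamma3 subunit, held means of 0, 0, 9.13 and 0.505 in U, I, D and ID and was not tested.

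Of 12 VIP, PACAP and related receptors and ligands, 5 were tested, none was called by limma, edgeR or DESeq2, and 0 had an unadjusted p under 0.05. Adcyap1r1, the PACAP receptor, differed by 0.08 (0.93), and Vipr2 stayed under the minimum mean. Of 17 other cytochrome c oxidase subunits, 16 were tested, and Cox6b2, a testis isoform, was called higher (1.03, adjusted p = 4.95e-06), with 916, 1199 and 1267 in I and 2103 and 2481 in ID, a call that neither edgeR nor DESeq2 made. Cox6b2 also differed in ID over I by 0.95 in the CTCF line (adjusted p = 0.000865) and 0.75 in LCL (0.000126), below the limit for a call. In CLC it differed by −0.23 (0.24). Its change did not differ detectably between the CTCFL and CTCF lines (0.08, adjusted p = 0.885). The median over these subunits in CTCFL ID over I was 0.56. Cox6a1, the isoform used outside muscle, had means of 5628, 6141, 5855 and 8580 and a difference of 0.53 (0.0213).

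Of 19 protein-coding genes within 100 kb of a member, 13 were tested in CTCFL ID over I and none was called by limma, where 7.83% of all genes were. An unadjusted p under 0.05 was found for 6 of them, and edgeR and DESeq2 each called 1, Zfp651, which lies 90.6 kb from Vipr1 and differed by −0.91 in limma (adjusted p = 0.0033). Ift27, 30.1 kb from Pvalb, differed by 0.78 (0.00131), and 9130023H24Rik, 31.6 kb from Cox6a2, by −1.25 (0.0402). These neighbours and Lyzl4 were chosen after their values were seen. Lyzl4, which starts 620 bp from Vipr1 on the other strand, had means of 2.24, 11.2, 8.15 and 32.9 in U, I, D and ID and a difference of 1.63 (0.227). Ift27 and Tgfb1i1, the latter 40.4 kb from Cox6a2, were called higher in LCL ID over I.

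The cells were checked for markers of the tissues in which these genes are active. ES cell markers remained expressed in all groups of the CTCFL line, but their sum was lower in I and D than in U and lowest in ID. Their summed level over 10 genes was 188508 to 205692 in U, 142212 to 144427 in I, 139995 to 148225 in D and 99102 to 105047 in ID, and Tfcp2l1, Tdgf1 and Fgf4 were called lower in ID over I. Of the 10, 9 had an unadjusted p under 0.05 in limma in that comparison, with a median log2 difference of −0.65 over the list. Of 12 neuronal markers, 10 were tested and none called by limma, edgeR or DESeq2, 5 having an unadjusted p under 0.05, Dcx was at 0 in every library of the line and Snap25 at 0 in ID, and the sum was 22340 to 24020 in U, 16394 to 19975 in I, 21418 to 21891 in D and 20635 to 20663 in ID, most of it Stmn2. Of 13 markers of GABAergic interneurons, 8 were tested, with Slc32a1 called higher and Gad2 and Kcnc1 lower, the call of Gad2 being made by limma and not by edgeR or DESeq2, and Dlx5 and Sst were at 0 in U, I and D. The sums ran from 644 to 835 in U, 534 to 564 in I, 726 to 884 in D and 724 to 738 in ID.

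The remaining lists moved as follows. Of 10 neural progenitor markers, 4 were tested and Sox1 was called lower, and of 5 glutamatergic markers 1 was tested and not called, with sums of 173 to 203 in U, 326 to 429 in I, 249 to 315 in D and 632 to 640 in ID. Of 19 striated muscle markers, 15 were tested and Tnni1 was called higher, with sums of 4288 to 4377 in U, 4387 to 4905 in I, 3716 to 4185 in D and 5556 to 5767 in ID, and Myl1 was at 0 throughout the line. In LCL ID over I, 4 of 11 muscle markers tested were called lower (Ckm, Des, Ttn and Mb), where 8.49% of all genes were called in either direction. In CLC ID over I, with 1.95%, 2 of 11 were called lower (Myh7 and Des), and in CTCF ID over I, with 5.06%, 0 of 14 were called. The differences among these counts were not tested. Other marker lists also held calls in LCL ID over I, with Map2, Gad1, Npy, Neurog1 and Pdgfra higher and Thy1 lower. In CLC ID over I their calls were Slc32a1 higher and Col1a1 lower. Primitive endoderm (7 tested, 5 at an unadjusted p under 0.05) and fibroblast markers (4 tested, 3 at an unadjusted p under 0.05) held no call by limma, edgeR or DESeq2 in CTCFL ID over I. The part of these markers in the levels of the 6 genes was not tested.

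The genes whose pattern over the 16 group means of log2(value + 1) was most like each of the 6 were found among 17918 genes by Pearson correlation, which describes points that share libraries and lines. They were Tpgs2, Fxyd7 and Gm32816 for Pvalb (0.969, 0.906 and 0.900), Pck1, C1ql2 and Prss50 for Tmem132e (0.944, 0.943 and 0.941), and Olfml2a, Creg2 and C1ql2 for Gabra5 (0.933, 0.927 and 0.926). For Vipr1 they were Rnf103, Ccno and Lacc1 (0.95, 0.943 and 0.935), for Ror1 Tiparp, Mre11a and Rgs6 (0.867, 0.848 and 0.842), and for Cox6a2 C2, Oplah and Klk13 (0.958, 0.951 and 0.939). Rgs6, like Ror1, was higher in CTCFL D (108) than in ID (27.2). Among the 6 themselves, Tmem132e correlated with Gabra5 at 0.92, with Vipr1 at 0.89 and with Pvalb at 0.85. Ror1 reached 0.65 with Gabra5 and 0.22 with Vipr1, and Cox6a2 ranged from −0.29 with Ror1 to 0.59 with Vipr1.

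The distance from the start of each gene to the nearest edge of a Hi-C domain was read from the domain lists, in which edges fall on bins of 40 kb. Vipr1 lay 2.7 kb from an edge in all 4 CTCF groups and in CTCFL U and D, and 37.3 kb in CTCFL I and ID, LCL ID and CLC ID. Tmem132e lay 28.9 kb from an edge in 8 of 12 groups, 51.1 kb in CTCFL I, 411.1 kb in CTCFL ID and CLC ID and 371.1 kb in LCL ID. Ror1 lay 64.2 kb from an edge in CTCFL U and D, 95.8 kb in I and 135.8 kb in ID. Gabra5 lay 70.1 kb from an edge in CTCFL U, I and D and 89.9 kb in ID, and Pvalb 33.6 kb in CTCFL U, I and ID and 73.6 kb in D. Cox6a2 ranged from 6.4 kb to 273.6 kb without a common order between lines. Between CTCFL U and D, the distance was the same for Tmem132e, Ror1, Gabra5 and Vipr1, and differed for Pvalb and for Cox6a2 (6.4 and 273.6 kb). By the protocol these cells were treated longer than those used for RNA. Each group has 1 list, so no error can be given, and shifts of 1 bin are at the limit of the lists.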

How the data were processed

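RNA-seq (polyA, stranded), ChIP-seq of FLAG and RAD21 by ChIPmentation and Hi-C were made from the cell lines described above. The deposited RNA table holds normalized counts, a signal that the authors made by aligning reads to GRCm38 with STAR and dividing the gene counts by 1 size factor per library. The counting program is not given in the sources used here. Peaks were called by the authors in each replicate with MACS at a q of 0.05 after removal of duplicates, and the deposited peak files give the −log10 q and the fold enrichment (a ratio) of each peak. Samples were grouped by their labels.

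Whole reads were recovered from the normalized counts in 36 of 38 libraries, where 100.0% of low values were whole within 0.1 of a read. In CTCFL I replicate 2 and CTCFL ID replicate 2 this share was also 100.0%. The rule used here set these libraries aside because 1 read was worth close to 1 normalized count, at 0.998 and 1.005. They therefore entered no test on reads, by that rule and not for want of whole values. Results of edgeR and DESeq2 that involve CTCFL ID therefore rest on 1 library of that group, without a replicate. log2(value + 1) was fitted per line with limma 3.58.1 in R 4.3.3, over genes with a mean of at least 10 in the line, and differences between lines in 1 fit of all lines. A gene was called at an adjusted p under 0.01 and a log2 difference above 1. Nothing says that replicates were separate cultures, so p-values measure the spread between these libraries, which may be technical. Sites were peaks of both replicates that overlap by 1 bp. edgeR 4.0.16 and DESeq2 1.42.0 on recovered reads, a pseudocount of 5, no filter, TMM, other sample sets and other site rules were alternatives, and the fits were tested on simulated data. The 6 genes, the family and marker lists and the tests were chosen with earlier results of these data known. Named beside the 6 were Ctcf, Ctcfl, relatives called in CTCFL ID over I or sharing a receptor, cluster or isoform pair, neighbours called in any line, the 3 most correlated genes of each, and the genes next in the rankings. Sequences are from RefSeq (GRCm38), and positions from GENCODE. One gene that this rule names is not reported here.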

Additional observations from a re-analysis of the deposited data

Results flagged for a closer look

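The change from I to ID was called as different between lines, by a test of the difference itself in limma over 17918 genes, for 4 of the 6 genes over the comparisons below. Of all genes, 2.85% were called between CTCFL and CTCF and 12.8% between CTCFL and CLC. The shares were 11.1% between CTCFL and LCL and 9.58% between LCL and CTCF. Between CTCFL and CTCF the difference was 5.17 for Tmem132e (adjusted p = 0.00207) and 2.70 for Vipr1 (2.07e-05), larger in CTCFL for both. Between CTCFL and CLC it was 3.55 for Pvalb (0.00587), 4.28 for Tmem132e (0.00861) and 4.54 for Vipr1 (2.63e-09). Between CTCFL and LCL it was 2.64 for Vipr1 (3.11e-05) and 2.67 for Cox6a2 (0.0011). Between LCL and CTCF it was −4.59 for Cox6a2 (3.55e-07), lower in LCL. The comparisons of CTCFL share its 3 I and 2 ID libraries. The call of Tmem132e against CTCF and those of Pvalb and Tmem132e against CLC were lost under some of the alternative settings given above. Both genes entered the fit only through groups in which they were high.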

How the results depend on the processing

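Of the alternatives, 405 of 480 settings of 36 counts, 581 of 648 settings of 47 values of single genes and 49 of 56 settings of 8 counts of promoter sites gave the same direction and side of the threshold, or a count within 1.5 times. Of the others, the cause was not tested. In CTCF D against U, 36 genes were called higher and 40 lower, against 23 higher without a filter, 57 higher with DESeq2 and, with a replicate block, 13 higher and 15 lower, and DESeq2 called 0 of the 6 genes. In LCL ID against I, 1 of the 6, Cox6a2, was called with a pseudocount of 5, with 2 groups alone, in edgeR, in DESeq2 and with all lines in 1 fit, against 0. Cox6a2 reached the minimum mean in LCL only through I and D, in which it was high. In CLC ID against I, 177 were called higher and 122 lower, against 113 and 51 with the replicate block, 3 and 0 with 2 groups alone, 69 lower without a filter, 224 lower with DESeq2, and 353 lower and 1 of the 6 with all lines. In CLC D against U, 54 were called higher and 38 lower, against 21 and 21 without a filter, 14 and 8 with the block, 207 and 94 with 2 groups alone, 175 and 83 with DESeq2, and 247 and 95 with 1 of the 6 for all lines. In CLC I against U, 1 of the 6 was called, against 0 without a filter, with the block or with 2 groups alone, and 2 with DESeq2 or all lines. Of the 6 genes, CTCFL minus CTCF gave 2 calls and 4 with a pseudocount of 5, CTCFL minus LCL 2 and 5, and CTCFL minus CLC 3, but 1 without a filter or in edgeR. The number of genes with a promoter site was 3 for CTCFL D, 1 for CTCF D and 3 for CLC ID with 50% overlap, and 1 for CTCF ID within 1 kb.

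In edgeR, which had 1 CTCFL ID library, the sign turned for Pvalb in CTCFL minus CTCF (−0.96). In CTCFL minus LCL it turned for Pvalb (−0.79), Tmem132e (−0.13), Ror1 (1.32) and Gabra5 (−1.21). None of these was called in the main fit. Cox6a2 in CTCFL ID over I was −0.044 with TMM. Leaving out 1 library at a time, the value ranged from −0.31 to 0.17 for Cox6a2 and −0.16 to 2.40 for Ror1 in CTCFL ID over I, from 0.0 to 0.44 for Pvalb in CTCF I over U, and from −0.29 to 0.81 for Vipr1 in LCL ID over I. Ror1 ranged from −0.18 to 2.39 in CTCFL minus CTCF, from −0.16 to 2.40 in CTCFL minus CLC and from −2.26 to 0.31 in CTCFL minus LCL. In LCL minus CTCF, Gabra5 ranged from −0.66 to 2.35 and Vipr1 from −0.48 to 0.62. The counts called ranged from 3 to 35 higher and 9 to 35 lower, with 0 to 1 of the 6, in CTCF D over U, from 46 to 473 higher and 13 to 165 lower in CLC ID over I, from 1 to 2 higher and 0 lower in CLC D over U, and from 615 to 1033 higher and 599 to 1358 lower, with 0 of the 6, in CLC I over U. Of the 6, 1 to 3 were called in CTCFL minus CTCF and in CTCFL minus CLC. With 1 ChIP replicate, genes with a site numbered 4 to 6 for CTCF D, 3 to 5 for CTCF ID, 4 to 6 for LCL D and 0 to 2 for CLC D.

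Replicate numbers did not pair the libraries. The correlation of deviations between same-numbered libraries ranged from −0.064 to 0.065 in CTCFL, −0.297 to 0.162 in CTCF, −0.016 to 0.074 in LCL and −0.253 to 0.056 in CLC. Many groups have 2 libraries, Pvalb, Tmem132e and Gabra5 are at or near 0 in most LCL and CLC libraries, and no file gives the read depth behind the peaks.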
